A study of Homo sapiens with 4 samples.

Results

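The heterogeneous nuclear ribonucleoproteins (hnRNPs), the polypyrimidine tract-binding proteins (PTBPs) and the RNA-binding motif (RBM) proteins were followed in H9, a long-established line of human embryonic stem cells, after knockdown of UPF1, the RNA helicase of nonsense-mediated decay (NMD). The genes were taken by symbol. They comprised every HNRNP symbol, PTBP1, PTBP2 and PTBP3, and the RBM symbols with a number, including RBMS and RBMX2, each with a coding RefSeq transcript. RBM8A, a core subunit of the exon junction complex, was left out. This gave 62 of the 15942 genes in the deposited table, namely 22 hnRNP, 3 PTBP and 37 RBM genes.

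The libraries were 2 transfected with a small interfering RNA (siRNA) against UPF1 (siUpf1 replicates 1 and 2) and 2 transfected with an siRNA against luciferase, a firefly gene absent from these cells (siLuc). Both siLuc columns carry the same heading, so they are called siLuc a and siLuc b in the order of the table. One treatment description is attached to every library; it mentions actinomycin D, which blocks transcription, and an siRNA against UPF3A, and it assigns no time to a library. Separate cultures are nowhere stated, so p-values reflect the spread between these particular libraries, and that spread may be technical.

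Proteins of these families coat nascent and mature transcripts and steer splicing, 3′ end formation, export, translation and decay. Many of them also bind their own transcripts. By including an exon that carries a stop codon, or by skipping an exon and shifting the reading frame, they turn part of their own output into transcripts with a stop codon ahead of an exon junction. UPF1 and its partners recognise such transcripts once they have been translated, and degrade them. PTBP1, HNRNPL, HNRNPD, RBM10 and RBM39 are known examples of genes with such poison exons or frame-shifting splice forms. The counts analysed here sum all isoforms of a gene, so they give the total transcript level and not the share of the NMD isoform.

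The stop codons concerned can be read from the GENCODE release 29 annotation (GRCh38). They are shown for genes on which the results turn. These are risers and genes known to be controlled through NMD by their own protein or a paralog. A stop codon ahead of an exon junction is the feature that would make the isoform a UPF1 substrate. Each line gives 30 bases of an annotated NMD transcript, 5′ to 3′ on the coding strand, with the stop codon in capitals.
PTBP1-207: gtgacgtgcagcgcgTGAagatcctgttca
HNRNPL-202: gtgctaactcactgtTGAagcgtccaatgg
HNRNPLL-201: gaaagaagcccacttTGAaaatgtgttgct
HNRNPA2B1-203: gggaggagccgatacTGAgcttcttcctat
HNRNPD-209: aaaaagaacataaatTGAatgggaaggtga
HNRNPDL-202: aattaccagccatacTAAaggagaacattg
RBM39-206: gtgaactgtcaatcaTAAggatgagaacaa
RBMS2-205: gcagatggcaccaccTAGcccaagcaacag
RBM41-208: ttatcttttaccccaTAGcatattgtgagg

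In HNRNPL, HNRNPLL and RBM39 the stop lies in an exon that no coding transcript of the gene uses. For RBM39 this is a 73-nt exon at chr20:35740525-35740597 on the minus strand, and 8 of its 15 annotated NMD transcripts stop there. The HNRNPL stop exon is 70 nt long (chr19:38841613-38841682, minus strand). The HNRNPLL stop exon is 83 nt long (chr2:38577920-38578002, minus strand). In PTBP1-207 the stop lies in an exon that coding transcripts also use (chr19:808360-808452, plus strand), 25 nt after a junction that none of them has. HNRNPD-209 has a stop 26 nt after such a junction, and RBMS2-205 has one 36 nt after it. In RBM41-208 the stop lies in an exon of 1171 nt (chrX:107069255-107070425, minus strand), 234 nt after such a junction. HNRNPA2B1-203 and HNRNPDL-202 keep the normal stop codon and each carry 2 junctions downstream of it that no coding transcript has, and their last junctions lie 157 and 127 nt after the stop. The 5′ ends of PTBP1-207 and HNRNPLL-201 are annotated as incomplete. No NMD transcript was annotated for PTBP2 or RBM10, so none is shown.

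Depth was 10058515 and 11200973 counts in siUpf1 replicates 1 and 2, against 8887239 and 9937231 in siLuc a and siLuc b. The 62 genes together took 0.760% and 0.729% of the counts in the siUpf1 libraries, against 0.805% and 0.787% in the siLuc libraries. Levels are given as counts per 1e+06 counts of the library (CPM), with TMM factors. UPF1 itself had 60.8 and 78.2 CPM in siUpf1 libraries, against 219 and 205 CPM in siLuc libraries, a log2 fold change of -1.60 (SE 0.07, adjusted p = 1.06e-102). Here and below, adjusted p is from edgeR's quasi-likelihood test with Benjamini-Hochberg adjustment over the 15557 genes tested, and a gene is said to rise or fall when it is under 0.05. All 10 markers of undifferentiated embryonic stem cells were present, the lowest at 83.4 CPM. Their summed level was 1920 and 1785 CPM in siUpf1 libraries against 2214 and 2072 CPM in siLuc libraries. Of the 10 markers 6 fell, where 9.14% of all genes tested fell and 16.8% rose. DESeq2 called 3 of them down, where it called 2.99% of all genes down. With the trend on read density described below removed, 2 of them fell, where 10.6% of all genes fell. Of 4 genes read as fibroblast markers, COL1A2 and THY1 lay between 158 and 185 CPM, and DCN and LUM were not tested. Whether the COL1A2 and THY1 transcripts came from fibroblasts was not tested, so their levels give no fibroblast share. Of 6 markers of other lineages 4 were tested, all between 0.535 and 6.30 CPM. Of these 4, none rose and 2 fell. FOXA2, an endoderm factor, had 0.600 and 0.535 CPM in siUpf1 libraries, against 4.98 and 4.09 CPM in siLuc libraries (-2.97, SE 0.37, adjusted p = 7.05e-14), the lowest log2 fold change of all genes tested. MIXL1, a mesendoderm factor, had 2.90 and 3.21 CPM in siUpf1 libraries, against 4.86 and 5.89 CPM in siLuc libraries (-0.82, SE 0.25, adjusted p = 0.00730), while the neural PAX6 and SOX1 did not pass the threshold. In bulk RNA, fewer cells of a type and less RNA per cell cannot be told apart. The part of these shifts in the results below was not tested.

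UPF1 knockdown moved few of the 62 genes far. All 62 passed the filter on low counts. Of these, 3 rose and 13 fell, while 16.8% of all genes tested rose and 9.14% fell. The 3 risers, RBMS2, RBM41 and RBM24, were all RBM genes, while the fallers were 7 hnRNP genes, PTBP2 and 5 RBM genes. The median log2 fold change was -0.12, against -0.01 over all genes tested, and 48 of 62 values were negative. Both siUpf1 libraries lay above both siLuc libraries for 9 genes and below both for 38, where the shares over all genes were 32.3% and 31.1%. Only RBMS2 and RBMS3 kept an adjusted p under 0.05 in each of the 11 alternative analyses run on single genes. DESeq2 called 2 up and 2 down among the 62, and 8.19% up and 2.99% down over all genes tested.

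**Figure D1:**
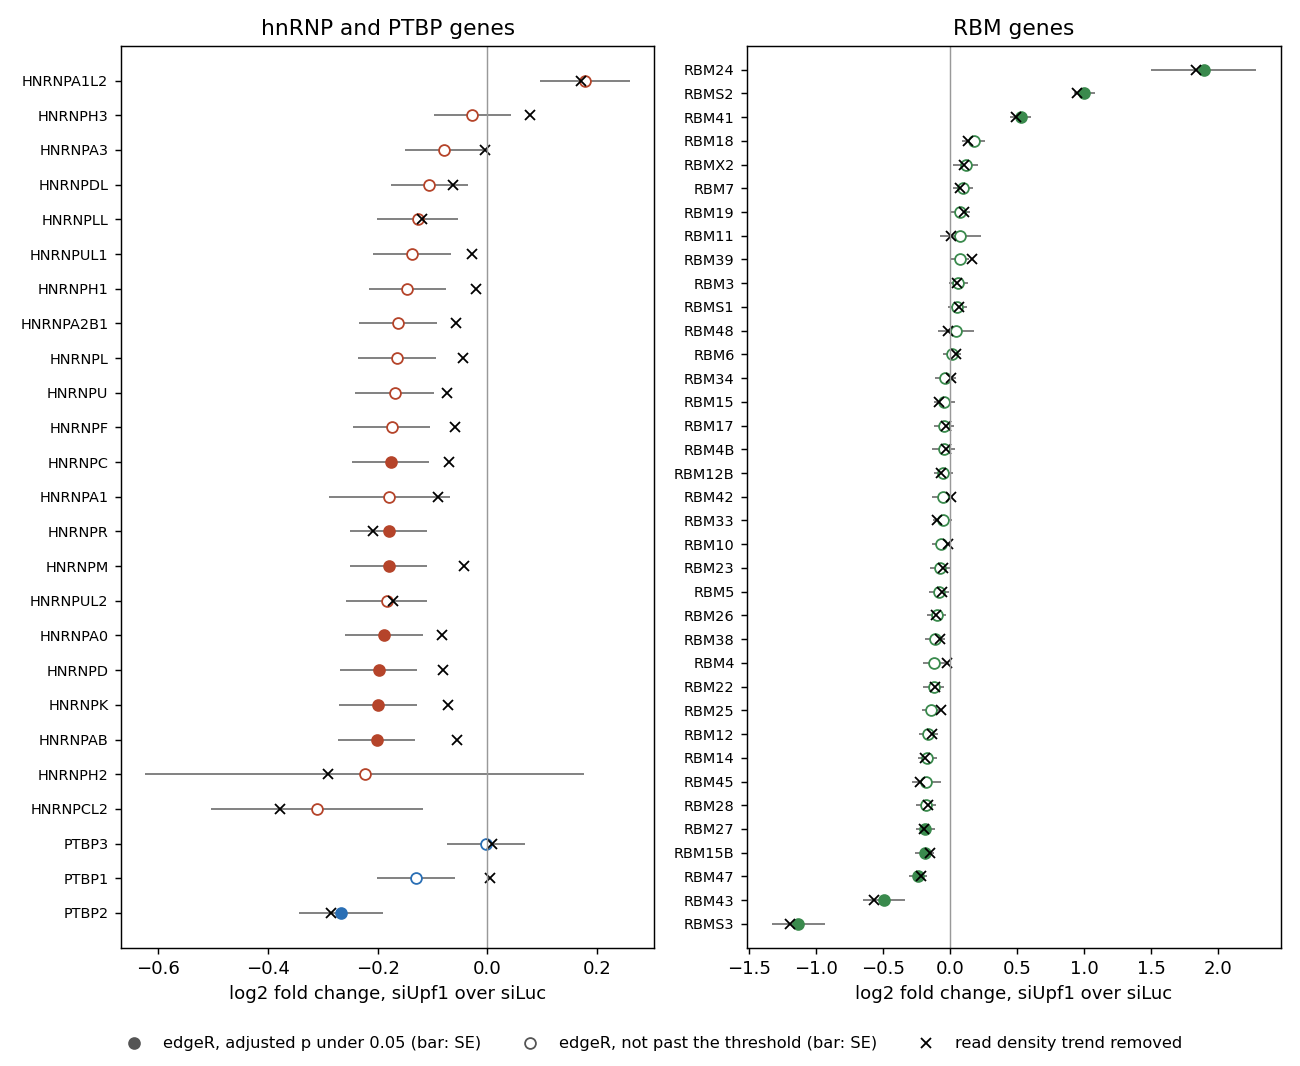
Log2 fold change of each of the 62 genes, siUpf1 over siLuc, with hnRNP and PTBP genes on the left panel and RBM genes on the right (note the different scales); circles are edgeR values with SE bars, filled when adjusted p is under 0.05, and crosses are values after removal of the trend on read density. RBM24, RBMS2 and RBM41 lie far to the right and RBMS3 far to the left, while 21 of the 22 hnRNP genes sit between -0.31 and -0.03.

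RBMS2 rose by about a factor of 2. It encodes a single-stranded nucleic acid-binding protein that attaches to AU-rich 3′ untranslated regions (UTRs) and stabilises mRNA. It had 129 and 121 CPM in siUpf1 replicates 1 and 2, against 59.5 and 65.1 CPM in siLuc a and siLuc b. The siUpf1 libraries lay well above both siLuc libraries, with means of 125 ± 5.53 CPM in siUpf1 and 62.3 ± 3.98 CPM in siLuc (SD, n = 2 each). The log2 fold change was 1.003 (SE 0.08, adjusted p = 1.05e-37), and it lay between 0.94 and 1.06 when single libraries were left out. The longest annotated 3′ UTR of RBMS2 is 7063 nt, where the median is 1359 nt over matched coding genes. Of its annotated transcripts 2 are typed as NMD, one of them RBMS2-205 with its TAG stop shown above.

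The paralogs of RBMS2 behaved otherwise. RBMS3, which likewise binds 3′ UTRs, had 5.20 and 4.90 CPM in siUpf1 libraries, against 11.3 and 10.9 CPM in siLuc libraries. This was a low-level transcript, at 52 and 55 counts in siUpf1 against 100 and 109 counts in siLuc, and the groups did not overlap. Its log2 fold change was -1.13 (SE 0.20, adjusted p = 2.80e-07), the largest fall among the 62. Like RBMS2, which rose, RBMS3 has a long annotated 3′ UTR, of up to 6529 nt, and 1 transcript typed as NMD. For RBMS1 the longest is 2621 nt, and no transcript is typed as NMD. RBMS1 had 146 and 135 CPM in siUpf1 libraries, against 134 and 136 CPM in siLuc libraries, with a log2 fold change of 0.05 (SE 0.07, adjusted p = 0.620) and overlapping groups. Per kilobase of counted transcript, RBMS1 stood at 32.9 and 31.7, RBMS2 at 15.9 and 7.93, and RBMS3 at 0.620 and 1.36 CPM, in siUpf1 and then siLuc. RBMS1 was therefore the most abundant of the 3 in both groups.

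RBM41, whose RNA recognition motif resembles that of the minor spliceosome protein RNPC3, had 95.6 and 91.3 CPM in siUpf1 libraries, against 75.2 and 55.1 CPM in siLuc libraries. Both siUpf1 values were above both siLuc values, but the siLuc libraries were themselves far apart. The log2 fold change was 0.53 (SE 0.08, adjusted p = 3.14e-10). It was 0.76 without siLuc a and 0.30 without siLuc b (adjusted p = 0.0405), and DESeq2 gave an adjusted p of 0.120. RBM24, a splicing regulator of heart and skeletal muscle, was close to the floor of detection in both groups. It had 39 and 20 counts in siUpf1 libraries (3.90 and 1.78 CPM), against 6 and 8 counts in siLuc libraries (0.679 and 0.798 CPM). The log2 fold change was 1.89 (SE 0.39, adjusted p = 1.85e-05), and without siUpf1 replicate 1 it was 1.25 with an adjusted p of 0.0593.

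**Figure D2:**
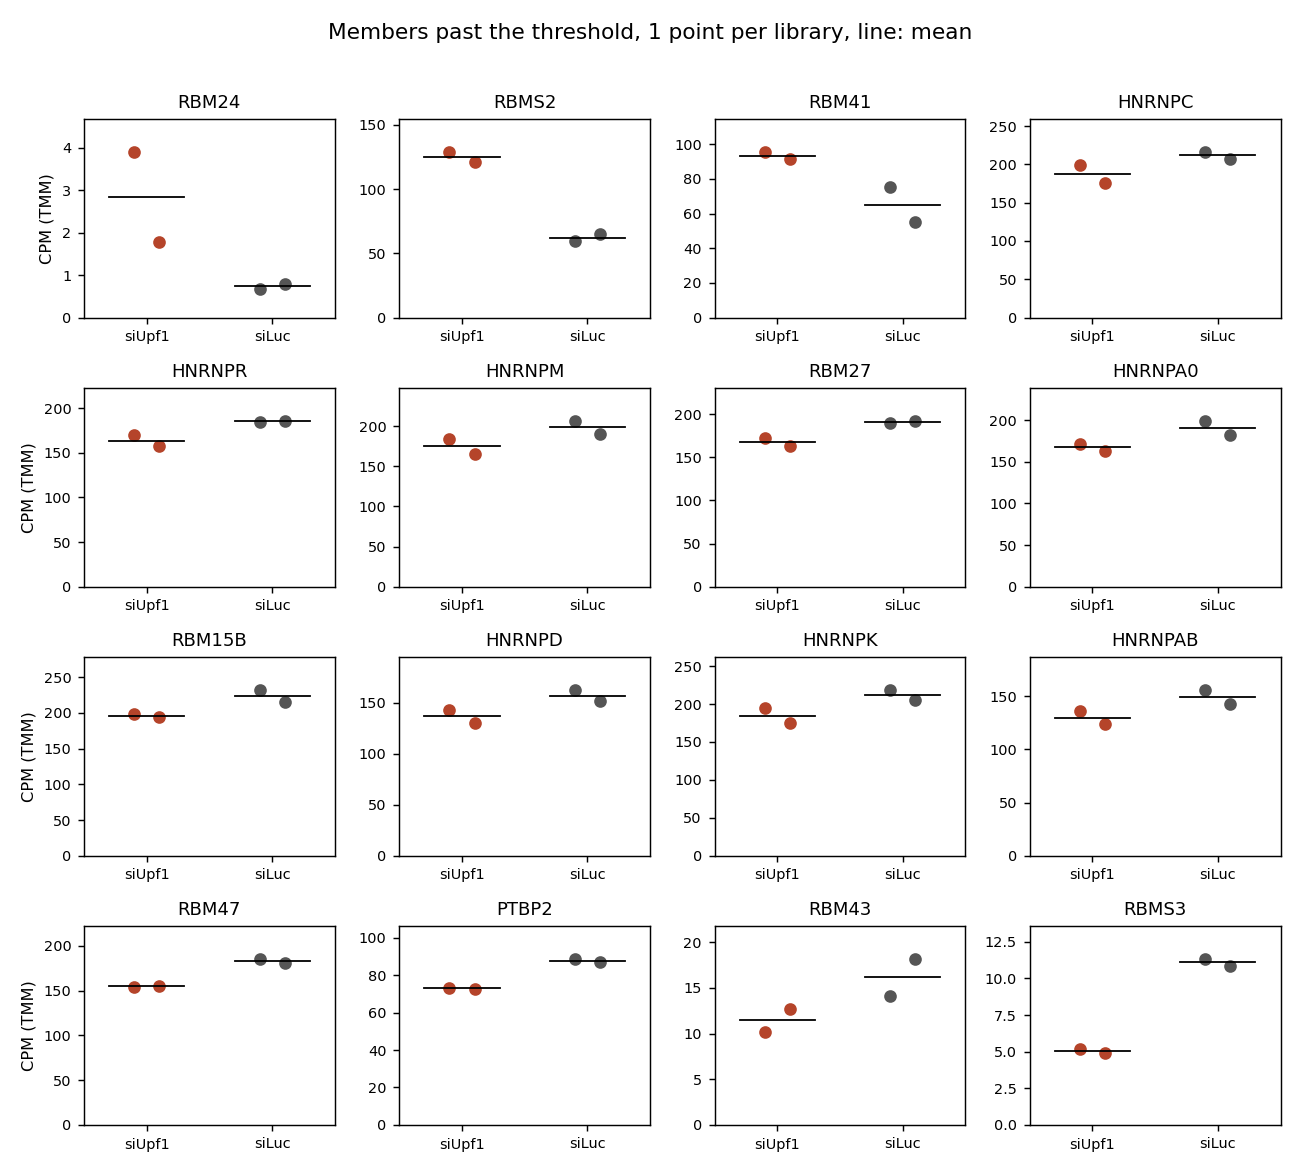
TMM-scaled CPM of the 16 genes past the threshold, with 1 point per library, siUpf1 on the left and siLuc on the right of each panel, a line at each group's mean and a linear axis from 0. RBMS2 and RBMS3 separate the groups by about a factor of 2 in opposite directions, whereas the hnRNP panels show siUpf1 points slightly under the siLuc points.

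Besides RBMS3, 4 RBM genes fell, so 5 of 37 did, where 9.14% of all genes tested fell. RBM47, a cofactor of the APOBEC1 cytidine deaminase in C-to-U mRNA editing, had 154 and 156 CPM in siUpf1 libraries, against 185 and 181 CPM in siLuc libraries, a log2 fold change of -0.24 (SE 0.07, adjusted p = 0.00430). RBM15B, which with RBM15 guides the N6-methyladenosine (m6A) writer complex to its RNA targets, had 198 and 194 CPM in siUpf1 libraries, against 232 and 216 CPM in siLuc libraries, a log2 fold change of -0.19 (SE 0.07, adjusted p = 0.0322). The groups did not overlap for either gene, but the distance between them was a small part of the level. RBM27, a zinc finger protein that helps to hand polyadenylated nuclear RNA to the exosome, had 172 and 163 CPM in siUpf1 libraries, against 189.5 and 192 CPM in siLuc libraries, a log2 fold change of -0.19 (SE 0.07, adjusted p = 0.0348). RBM43 had 10.2 and 12.7 CPM in siUpf1 libraries, against 14.1 and 18.2 CPM in siLuc libraries, a log2 fold change of -0.49 (SE 0.16, adjusted p = 0.00968). For RBM43 the libraries of a group differed more from each other than the nearest libraries of the 2 groups did. Of these 4, none kept an adjusted p under 0.05 without siLuc b, where the values were 0.0554 for RBM47, 0.0751 for RBM15B, 0.226 for RBM27 and 0.389 for RBM43. Without siLuc a they were 0.127 for RBM47, 0.439 for RBM15B and 0.206 for RBM27. Without siUpf1 replicate 1 the value was 0.0934 for RBM43, and without siUpf1 replicate 2 it was 0.0831 for RBM15B and 0.159 for RBM27.

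The partners of these genes in the same processes did not pass the threshold. RBM15 had a log2 fold change of -0.04 (SE 0.08), and RBM26, the relative of RBM27 in the same exosome pathway, had -0.10 (SE 0.07). RBM7, the RNA-binding subunit of the nuclear exosome targeting complex, had 0.10 (SE 0.07). Among 15 tested RBM genes of the spliceosome or of splicing regulation, only RBM24 was called. Over all genes tested, 25.9% were called in either direction. RBM19, RBM28 and RBM34, which act in ribosome biogenesis, gave 0.08, -0.18 and -0.04 on the log2 scale, and the cold-inducible RBM3 gave 0.06. Over the 37 RBM genes the median log2 fold change was -0.06, with 24 values negative.

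Most RBM genes of the splicing machinery lay close to their siLuc level. RBM25, an exonic enhancer-binding factor, had 213 and 205 CPM in siUpf1 libraries, against 235 and 226 CPM in siLuc libraries (-0.14, SE 0.07). RBM17, also called SPF45 and a 3′ splice site factor, had 110.0 and 99.6 CPM in siUpf1 libraries, against 109.6 and 107 CPM in siLuc libraries (-0.05, SE 0.07). RBM22, which contacts the catalytic core of the spliceosome, had 72.0 and 70.6 CPM in siUpf1 libraries, against 78.2 and 77.0 CPM in siLuc libraries (-0.12, SE 0.08). None of these 3 genes passed the threshold. RBM42, a component of the tri-snRNP, had -0.06 (SE 0.08), RBMX2 had 0.11 (SE 0.10) and RBM48, which acts in minor intron splicing, had 0.04 (SE 0.13). RBM4 and its neighbour and near copy RBM4B gave -0.12 (SE 0.08) and -0.05 (SE 0.09), and RBM6 and RBM23, relatives of RBM5 and RBM39, gave 0.01 (SE 0.07) and -0.08 (SE 0.07). RBM11, found mostly in brain and testis, was scarce at 7.67 and 7.23 CPM per kilobase in siUpf1 and siLuc, and gave 0.08 (SE 0.15). The other RBM genes below the threshold were RBM38, a p53 target that stabilises CDKN1A mRNA (-0.11), and RBM12, RBM12B, RBM14, RBM18, RBM33 and RBM45, with log2 fold changes of -0.18 to 0.18.

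The 3 PTBP genes differed in level and in change. They bind pyrimidine-rich tracts and mostly repress exons, PTBP1 in most cell types and PTBP2 in neurons, and PTBP1 directs PTBP2 transcripts into NMD by making them skip an exon. PTBP2 had 73.1 and 72.8 CPM in siUpf1 libraries, against 88.6 and 87.1 CPM in siLuc libraries. The libraries within each group were nearly equal and the siUpf1 pair was lower, with a log2 fold change of -0.27 (SE 0.08, adjusted p = 0.00323). That adjusted p was 0.1004 without siLuc a, 0.0541 without siLuc b and 0.0669 by DESeq2. PTBP1 had 229 and 217 CPM in siUpf1 libraries, against 254 and 234 CPM in siLuc libraries, a log2 fold change of -0.13 (SE 0.07, adjusted p = 0.174). PTBP3 had 261 and 239.6 CPM in siUpf1 libraries, against 254 and 248 CPM in siLuc libraries, with a log2 fold change of -0.0022 (SE 0.07, adjusted p = 0.985) and overlapping groups. Per kilobase of counted transcript the order was PTBP1 (68.3 and 74.7 CPM in siUpf1 and then siLuc), PTBP3 (31.8 and 31.9 CPM) and PTBP2 (22.4 and 27.0 CPM), the same in both groups.

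The hnRNP genes were, as a class, abundant and slightly lower after UPF1 knockdown. Their summed level was 3368 and 3105 CPM in siUpf1 replicates 1 and 2, against 3681 and 3497 CPM in siLuc a and siLuc b. The 4 sums ran in the reverse order of the libraries' total counts, and within each group the deeper library was the lower one. Of 22 genes, 7 fell and none rose (edgeR), where 9.14% of all genes tested fell and 16.8% rose. DESeq2 called none in either direction, where 2.99% of all genes fell and 8.19% rose. At an unadjusted p under 0.05, 1 was higher and 13 lower, where 21.3% of all genes were higher and 15.2% lower. The median log2 fold change was -0.18. Both siUpf1 libraries lay below both siLuc libraries for 18 of the 22, and above both for HNRNPA1L2 alone. Over all genes the shares were 31.1% below and 32.3% above.

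Among the A, B and D types, which bind UAG motifs or AU-rich elements, 3 of 8 fell, where 9.14% of all genes tested fell. HNRNPAB had 136 and 124 CPM in siUpf1 libraries, against 156 and 143 CPM in siLuc libraries, a log2 fold change of -0.20 (SE 0.07, adjusted p = 0.0204). HNRNPD, also known as AUF1 and a decay factor for AU-rich mRNAs, had 143 and 131 CPM in siUpf1 libraries, against 163 and 152 CPM in siLuc libraries, a log2 fold change of -0.20 (SE 0.07, adjusted p = 0.0231). HNRNPA0 had 171 and 163 CPM in siUpf1 libraries, against 199 and 182 CPM in siLuc libraries, a log2 fold change of -0.19 (SE 0.07, adjusted p = 0.0324). In all 3 genes the groups did not overlap and siUpf1 replicate 2 was the lowest library. HNRNPA2B1, whose protein binds its own transcript, had 225 and 200.4 CPM in siUpf1 libraries, against 242 and 234 CPM in siLuc libraries, a log2 fold change of -0.16 (SE 0.07, adjusted p = 0.0734). HNRNPDL, the relative of HNRNPD, had 171 and 161 CPM in siUpf1 libraries, against 183 and 173 CPM in siLuc libraries, a log2 fold change of -0.11 (SE 0.07, adjusted p = 0.279). HNRNPA1 and HNRNPA3 gave -0.18 (SE 0.11) and -0.08 (SE 0.07), and HNRNPA1L2, a retrocopy of HNRNPA1 that may share reads with it, gave 0.18 (SE 0.08).

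Single genes of the C, K, M and R types also fell. HNRNPC, which binds uridine tracts and keeps Alu-derived exons out of mRNA, had 199 and 176 CPM in siUpf1 libraries, against 216 and 208 CPM in siLuc libraries, a log2 fold change of -0.18 (SE 0.07, adjusted p = 0.0494). HNRNPK, a KH-domain protein that binds cytidine-rich RNA, had 194 and 175 CPM in siUpf1 libraries, against 218 and 206 CPM in siLuc libraries, a log2 fold change of -0.20 (SE 0.07, adjusted p = 0.0234). HNRNPM, a regulator of alternative splicing, had 184 and 166 CPM in siUpf1 libraries, against 206 and 190.3 CPM in siLuc libraries, a log2 fold change of -0.18 (SE 0.07, adjusted p = 0.0432). In these genes too the siUpf1 libraries were lower without overlap, by an amount close to the difference between the siUpf1 replicates. HNRNPR, a relative of SYNCRIP, had 170.0 and 158 CPM in siUpf1 libraries, against 185 and 186 CPM in siLuc libraries, a log2 fold change of -0.18 (SE 0.07, adjusted p = 0.0432). Of the 7 falling hnRNP genes, none kept an adjusted p under 0.05 without siLuc a, without siUpf1 replicate 2 or by DESeq2, and HNRNPAB alone kept it without siLuc b. With siUpf1 replicate 1 left out, 14 hnRNP genes fell.

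None of the 4 genes of the F/H type, which bind guanosine runs, nor of the 3 U-type genes was called by edgeR or DESeq2, and 2 of each type were lower at an unadjusted p under 0.05, against 15.2% of all genes. HNRNPU, the scaffold attachment factor and the gene with the most counts per library here, had 383 and 354 CPM in siUpf1 libraries, against 423 and 405 CPM in siLuc libraries (-0.17, SE 0.07, adjusted p = 0.0668). HNRNPF gave -0.17 (SE 0.07, adjusted p = 0.0507), HNRNPH1 -0.15 (SE 0.07) and HNRNPH3 -0.03 (SE 0.07), and HNRNPUL1 gave -0.14 (SE 0.07). HNRNPL and HNRNPLL, which bind CA-rich elements, were not called either. HNRNPL had 129 and 124 CPM in siUpf1 libraries, against 147 and 136 CPM in siLuc libraries, a log2 fold change of -0.16 (SE 0.07, adjusted p = 0.0664). HNRNPLL had 93.1 and 84.1 CPM in siUpf1 libraries, against 101 and 92.9 CPM in siLuc libraries, a log2 fold change of -0.13 (SE 0.07, adjusted p = 0.202). Among the genes that missed the threshold, HNRNPCL2, HNRNPH2 and HNRNPUL2 had the largest changes. HNRNPCL2, a close copy of HNRNPC, had 7.80 and 6.86 CPM in siUpf1 libraries, against 9.28 and 8.88 CPM in siLuc libraries, a log2 fold change of -0.31 (SE 0.19, adjusted p = 0.240). HNRNPH2 had only 9 and 17 counts in siUpf1 libraries, against 12 and 15 counts in siLuc libraries (-0.22, SE 0.40, adjusted p = 0.719), and its log2 fold change was 0.081 without siUpf1 replicate 1. HNRNPUL2 had 83.8 and 82.5 CPM in siUpf1 libraries, against 93.7 and 95.2 CPM in siLuc libraries, a log2 fold change of -0.18 (SE 0.07, adjusted p = 0.0515). The counted length behind HNRNPH2 was 186 bases and that behind HNRNPA1 was 567 bases, 0.0838 and 0.308 of the shortest GENCODE transcript matched to them, so their values rest on part of the transcript. This share was 0.339 for HNRNPA0, one of the 7 genes that fell, and 0.525 for HNRNPUL2.

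Over the whole table, fold changes sloped with read density, the mean count per base of counted transcript over the 4 libraries. The median log2 fold change of all genes was 0.07 in genes under 0.1 reads per base and -0.14 in genes at 0.6 or more. Among the 62 genes, HNRNPAB (0.768 reads per base), HNRNPM (0.735) and PTBP1 (0.713) were the densest, and 15 of the 22 hnRNP genes were at 0.5 or more. Among the 1072 genes at that density or above, 15.8% fell and 2.15% rose, and among the 15 hnRNP genes there 6 fell and none rose. HNRNPAB gave -0.20 where the median of its density class was -0.14, and HNRNPM gave -0.18 in the same class. Of the 10 markers of undifferentiated cells, 8 were also at 0.5 or more.

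**Figure D3:**
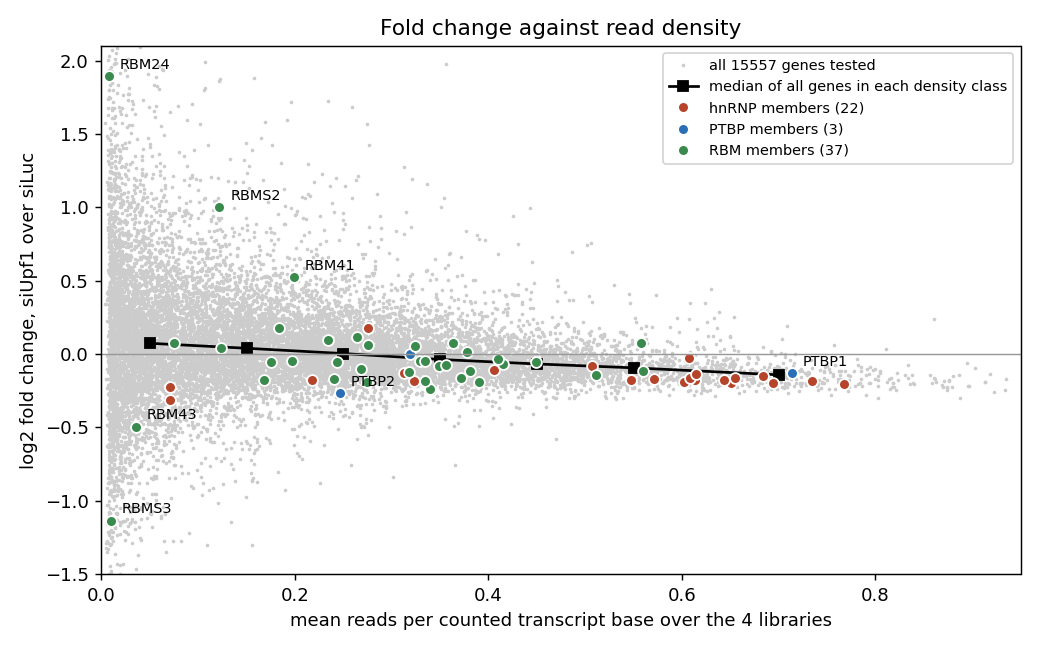
Log2 fold change, siUpf1 over siLuc, against mean reads per counted transcript base, with all 15557 genes tested in grey, hnRNP, PTBP and RBM genes in colour and black squares at the median of all genes in each density class, the last one, 0.6 or more, drawn at 0.7; points outside the frame are cut off. The squares descend from 0.07 at the left to -0.14 at the right. Most dense hnRNP genes lie on or just under them, while HNRNPH3 (-0.03) and HNRNPA3 (-0.08) lie above. RBM24, RBMS2, RBM41 and RBMS3 lie well off the line.

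With that trend removed from each library before the fit, 4 of the 62 genes rose and 10 fell, against 15.3% and 10.6% of all genes. Of the original calls 3 risers and 7 fallers were kept, and the median of the 62 became -0.06. The hnRNP falls dropped to 2, HNRNPR (-0.21, adjusted p = 0.0141) and HNRNPUL2 (-0.17, adjusted p = 0.0312), both at lower density (0.217 and 0.323 reads per base). None of the 15 dense hnRNP genes passed, where 2.15% of all genes at that density fell. HNRNPAB became -0.06 (adjusted p = 0.341), HNRNPD -0.08 (adjusted p = 0.163), HNRNPK -0.07 (adjusted p = 0.192), HNRNPA0 -0.08 (adjusted p = 0.169), HNRNPM -0.04 (adjusted p = 0.443) and HNRNPC -0.07 (adjusted p = 0.233). PTBP1 stood at 0.0049. The changes of the 3 RBM risers, of RBMS3 and of PTBP2 were nearly the same size as before. RBMS2 stood at 0.95 (adjusted p = 8.64e-05), RBM41 at 0.49 (adjusted p = 0.0189) and RBM24 at 1.83 (adjusted p = 0.0393). RBMS3 stood at -1.20 (adjusted p = 0.00154) and PTBP2 at -0.28 (adjusted p = 0.00378). RBM14 and RBM12 fell and RBM39 rose in this fit and not in the one without the correction.

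**Figure D4:**
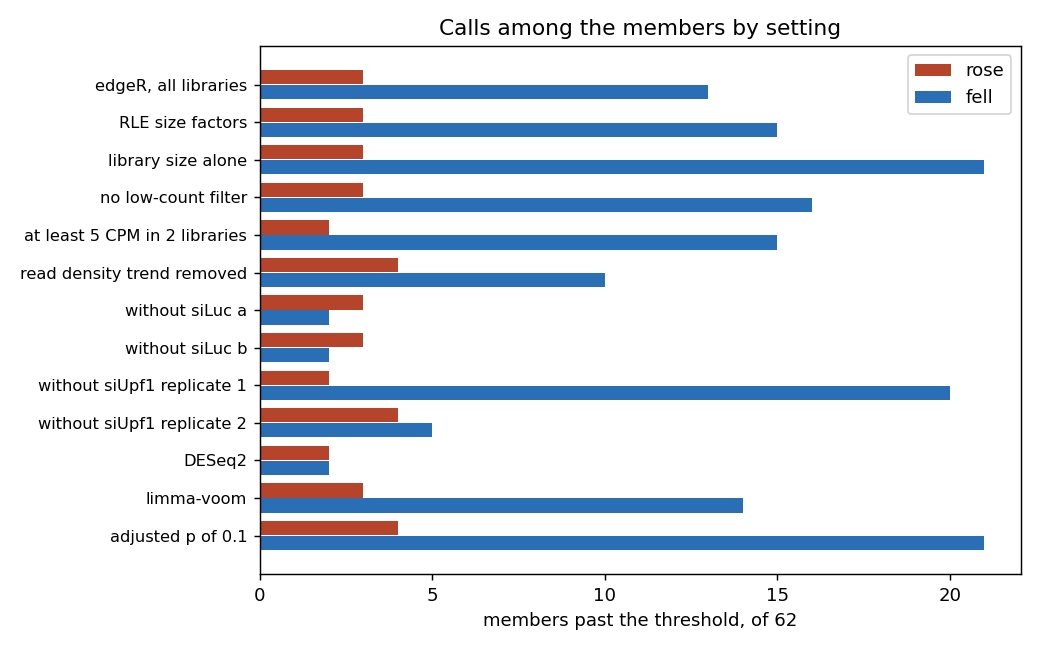
Number of the 62 genes that rose (red) or fell (blue) at an adjusted p of 0.05 in each setting, as horizontal bars starting at 0; the last setting uses 0.1. Risers number between 2 and 4 in every setting shown, while fallers range from 2 without either siLuc library and with DESeq2 to 21 with library size alone or an adjusted p of 0.1.

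Genes known to be controlled through NMD, by their own protein or by a paralog, were read as a list of 10. They were PTBP1, PTBP2, HNRNPL, HNRNPLL, HNRNPA2B1, HNRNPD, HNRNPDL, RBM5, RBM10 and RBM39. For PTBP2 the control described above is by PTBP1. None rose in edgeR, in DESeq2 or at an unadjusted p under 0.05, and 2 fell in edgeR, PTBP2 and HNRNPD. Over all genes tested, 16.8% rose and 9.14% fell in edgeR and 8.19% rose in DESeq2. At an unadjusted p under 0.05, 21.3% of all genes were higher. The median log2 fold change of the 10 was -0.13, and 9 of 10 values were negative, where 7990 of 15557 were negative over all genes. With the density trend removed the median was -0.059, and 1 rose and 1 fell, where 15.3% of all genes rose and 10.6% fell. The faller was PTBP2, while HNRNPD had an adjusted p of 0.163. RBM39, a partner of U2AF in splice site recognition, had 174 and 158 CPM in siUpf1 libraries, against 162 and 154 CPM in siLuc libraries, and the groups overlapped. Its log2 fold change was 0.07 (SE 0.07, adjusted p = 0.480), and 0.16 (adjusted p = 0.0185) with the density trend removed, the only one of the 10 to rise in that fit. RBM5 and RBM10 regulate exon skipping in genes of growth and cell death. RBM5 had 99.1 and 103 CPM in siUpf1 libraries, against 108 and 106 CPM in siLuc libraries (-0.08, SE 0.07). RBM10 had 134 and 135 CPM in siUpf1 libraries, against 147 and 135 CPM in siLuc libraries (-0.07, SE 0.07). Neither passed the threshold (adjusted p = 0.421 and 0.531).

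All 62 genes were matched to GENCODE by symbol. An NMD-typed transcript was annotated for 29 of them, 46.8%, against 41.0% of the matched coding genes. Of the 29 genes with such a transcript 2 rose (RBMS2 and RBM41) and 7 fell, with a median log2 fold change of -0.14. Of the 33 without one 1 rose (RBM24) and 6 fell, with a median of -0.08. With the density trend removed the medians were -0.061 and -0.055. Over all tested coding genes, 978 of 5529 with an NMD-typed transcript rose and 390 fell, with a median of 0.01, and 1274 of 7947 without one rose and 933 fell, with a median of -0.03. The longest annotated 3′ UTR had a median of 2160.5 nt in the 62 genes. PTBP2, which fell, has one of 10333 nt, and RBMS2, which rose, one of 7063 nt. The counted length was 3253 bases for PTBP2 and 7860 bases for RBMS2, so the PTBP2 counts do not cover its longest 3′ UTR in full.

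Other splicing regulators, whose symbols were not among those taken, were read for comparison. The list of 60 holds the CELF, MBNL, RBFOX, NOVA, ELAVL and PCBP families and other factors. It also holds RBMX, an RBM gene by name, and SYNCRIP, a relative of HNRNPR, so it is not wholly separate from the families above. Of the 56 tested, 4 rose and 11 fell, where 16.8% of all genes tested rose and 9.14% fell. Their median log2 fold change was -0.12. MBNL2, a muscleblind splicing factor, had 6.30 and 5.43 CPM in siUpf1 libraries, against 2.60 and 2.79 CPM in siLuc libraries, a log2 fold change of 1.11 (SE 0.26, adjusted p = 1.62e-04). Its paralog MBNL3 had 27.1 and 27.4 CPM in siUpf1 libraries, against 37.0 and 35.4 CPM in siLuc libraries, a log2 fold change of -0.41 (SE 0.11, adjusted p = 0.00148). MBNL2 and MBNL3, like RBMS2 and RBMS3, thus moved in opposite directions in edgeR. DESeq2 gave an adjusted p of 0.0525 for MBNL2 and 0.0569 for MBNL3. MBNL2 had only 63 and 61 counts in siUpf1 libraries, against 23 and 28 counts in siLuc libraries. Their paralog MBNL1 gave 0.07 (SE 0.09, adjusted p = 0.592). ESRP2, an epithelial splicing regulator, and CELF2 rose by 0.27 (adjusted p = 0.00178) and 0.23 (adjusted p = 0.00773) on the log2 scale, though CELF2 had an adjusted p of 0.0555 with the density trend removed. The neuronal factors CELF5 and NOVA1 changed by -0.85 (adjusted p = 5.27e-10) and -0.43 (adjusted p = 2.57e-04). With the trend removed 3 of the 56 rose and 6 fell, where 15.3% of all genes rose and 10.6% fell. DESeq2 called none of the 56 up and 1 down, CELF5 (adjusted p = 1.79e-04). Over all genes it called 8.19% up and 2.99% down.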

How the data were processed

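RNA of 2 siUpf1 and 2 siLuc libraries of H9 cells was read from one table, grouped by the column headings. The deposited read counts per gene are whole, unnormalized numbers, and RPKM values computed by the authors stand beside them. STAR, DESeq2 and hg19 are named, without role or version, per the submitters' processing notes. Strand use and the treatment of multimapping reads are not given in the sources used here, so close copies and overlapping genes are uncertain. RPKM columns of siUpf1 served only to derive the counted transcript length, and 2 per-sample columns whose library could not be told were not used.

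Counts were tested with the quasi-likelihood functions of edgeR 4.0.16 in R 4.3.3 (two-sided), with TMM scaling and filterByExpr, which kept 15557 genes. Benjamini-Hochberg adjustment ran over all of them at 0.05. The SE is the log2 fold change divided by the square root of F. Replicate libraries differed beyond counting noise (chi-square per degree of freedom 2.83 for siUpf1 and 1.69 for siLuc), so none was treated as a copy of another, whether or not the spread is technical, and the biological coefficient of variation was 4.47%. Tested on simulated data for siUpf1 against siLuc, with 200 of 15557 genes changed, the fit recovered 11.9% of 1.15-fold, 71.6% of 1.41-fold and 90.9% of 2-fold changes, with 8 false calls. Changes of that smallest size were therefore mostly missed in the simulation, with 2 libraries per group. Its changed genes were drawn from all genes tested, whose median siLuc level was 44.9 CPM. That median was 126 CPM in the 62 genes, and recovery at their level was not measured.

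Alternatives were RLE factors, library size alone, no low-count filter, at least 5 CPM in 2 libraries, DESeq2 1.42.0, limma-voom (limma 3.58.1), an adjusted p of 0.1, each library left out, and subtraction of each library's loess trend (span 0.3) on reads per counted base. The density split at 0.5 reads per base was chosen after the values were seen. Transcript types, stops and UTR lengths came from GENCODE 29 on GRCh38 by symbol, for 96.5% of tested coding genes. Where a gene had several NMD transcripts, the one shown had a complete start, then a stop in an exon absent from coding transcripts, then the lowest number, a choice made after the sequences were seen. One such sequence is not reported here.

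Named genes were all PTBP genes and the list of 10 genes controlled through NMD. In the hnRNP and RBM classes, up to 10 callers per direction by p were named. Also named were the 3 densest genes and the 3 largest changes past no threshold. Outside the genes taken by symbol, UPF1 and 3 risers and 3 fallers of the other splicing regulators were named. RBMS1 and the other genes given with a log2 value alone complete their role groups. The members and lists were chosen with earlier results of these data known.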

Additional observations from a re-analysis of the deposited data

How the results depend on the processing

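RNA-binding protein calls depended on the setting mainly for small falls. Against 13 falling genes of 62 in the edgeR analysis, library size alone and an adjusted p of 0.1 each gave 21 and DESeq2 gave 2. Falling hnRNP genes numbered 7, against 12 with library size alone, 12 at an adjusted p of 0.1, 2 with the read density trend removed and 0 with DESeq2, where none of 22 rose either. At an adjusted p of 0.1, 1 hnRNP gene rose. Falling RBM genes numbered 5, against 8 with library size alone, 8 at an adjusted p of 0.1 and 2 with DESeq2, and the 1 falling PTBP gene became 0 with DESeq2. Among other splicing regulators, 4 rising and 11 falling became 0 and 1 with DESeq2, 6 fell with the trend removed and 18 fell at an adjusted p of 0.1. Removing the trend moved the median log2 fold change of the 62 genes to -0.058 and that of the other splicing regulators to -0.049.

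Leaving out single libraries gave 2 to 4 rising and 2 to 20 falling genes of 62 (2 falling without either siLuc library, 20 without siUpf1 replicate 1, 5 without siUpf1 replicate 2), 0 to 1 rising and 0 to 14 falling hnRNP genes, 0 to 1 falling PTBP genes, 2 to 3 rising and 1 to 5 falling RBM genes, and 1 to 3 rising and 2 to 17 falling other splicing regulators, with medians of -0.16 to -0.08 for the 62 genes and -0.18 to -0.080 for the others. A library left alone in its group was taken to vary as the other pair did. The sign turned in 6 cases, all of uncalled genes. PTBP3 became 0.0077 with the trend removed, 0.013 without siLuc a, 0.060 without siUpf1 replicate 2 and -0.066 without siUpf1 replicate 1, PTBP1 became 0.0049 with the trend removed, RBM39 ranged between -0.00051 without siUpf1 replicate 1 and 0.14 without siUpf1 replicate 2, and HNRNPH2 between 0.081 and -0.66 in the same 2 fits. Over 16 called genes, 124 of 175 values under alternatives kept their call and none changed sign. The cause of these shifts was not tested. No paired analysis was possible because both siLuc columns carry the same heading and no replicate number.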
